A study of Rattus norvegicus with 24 samples.

Results

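Slco1c1, Slco1a4, Dio2, Thra and Thrb are 5 genes of thyroid hormone transport and signalling, and their transcripts were followed in the dentate gyrus of young and aged rats. Every probe set (the group of short probes that reads 1 transcript) whose annotated symbol was exactly one of these names was taken, which gave 11 probe sets for 5 genes, out of 31042 probe sets and 14217 genes with a single symbol on the array. The genes were proposed with earlier results of these data in view, among them the lower Slco1c1 level in aged rats. Differences of the 5 genes from young rats are therefore described here without a p-value. Counts of those that passed a threshold are given, but they are no support for a difference. The contrast between the aged groups was tested, but it shares its aged arrays with those differences. Its p-values for the 5 genes are therefore not free of that choice.

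Total RNA of the microdissected dentate gyrus, the hippocampal field that holds the granule neurons, was hybridised to Affymetrix rat arrays, 1 rat per array. All animals were male, individually housed Long-Evans rats from Charles River, the labels name no engineered allele or agent, and tissue was taken 2 weeks after water maze testing. The groups were 8 young rats of 6 months, 6 aged unimpaired rats and 7 aged impaired rats, the aged animals being 24 to 26 months old and divided by their learning score in the Morris water maze, a test of spatial learning. Unimpaired aged rats learned within the range of the young and impaired aged rats did not, so the aged groups were defined by performance and not by a manipulation.

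Values are log2 levels, so a difference of 1 is a doubling, and array medians lay between 3.77 and 3.84. The number of arrays limits the precision. A probe set was counted as measured when its level was above 4 on at least 6 arrays, which held for 15177 probe sets. Markers of granule neurons averaged 8.90 ± 0.16 (SD, n = 8) in young, 9.01 ± 0.06 (n = 6) in unimpaired and 9.06 ± 0.13 (n = 7) in impaired rats, over 7 of 10 listed genes on the array, 6 of them measured. Single genes of the 6 went both ways. Their differences from young rats ran from -0.22 to 0.59 in unimpaired and from -0.12 to 0.80 in impaired rats, so the mean does not stand for each gene. A list of 13 meningeal genes, of which 2 were measured, averaged 4.32, 4.10 and 3.47 on impaired arrays 2, 3 and 7 and 3.45 on young array 5, against at most 3.25 on the other arrays. Differences and correlations of the 5 genes that these 4 arrays touch are given with and without them. Choroid plexus genes, 10 on the array and 2 measured, averaged 3.96 on young array 2 and 3.79 on unimpaired array 3. They averaged 3.92 and 3.53 on impaired arrays 7 and 3, against at most 3.34 on the other arrays. No fit left out the arrays with high choroid plexus levels together.

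Thyroid hormone reaches the brain mainly as the prohormone thyroxine, which membrane carriers bring across the endothelial cells of the blood-brain barrier. Astrocytes then convert it to the active hormone triiodothyronine, and this binds nuclear receptors that sit on DNA with retinoid X receptors and repress or activate their target genes. In the hippocampus thyroid hormone is known for its part in neuronal maturation, myelination and adult neurogenesis.

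The promoters of Slco1a4 and Thrb, the genes with the smallest unadjusted p between the aged groups on at least 1 probe set, are shown because they differ widely in base composition. Sequences are from RefSeq (build GRCr8), read 5′ to 3′ on the gene's strand, with 250 bases before the annotated start in lower case and the first 50 transcribed bases in capitals. The Slco1a4 promoter lies at chr4:176495797-176496096 on the minus strand and the Thrb promoter at chr15:10461397-10461696 on the minus strand.
Slco1a4: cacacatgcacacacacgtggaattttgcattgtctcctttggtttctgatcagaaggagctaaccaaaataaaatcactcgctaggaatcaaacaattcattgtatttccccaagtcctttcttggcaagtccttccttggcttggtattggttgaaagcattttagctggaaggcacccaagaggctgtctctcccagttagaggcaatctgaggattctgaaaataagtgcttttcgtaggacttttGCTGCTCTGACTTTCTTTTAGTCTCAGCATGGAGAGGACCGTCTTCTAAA
Thrb: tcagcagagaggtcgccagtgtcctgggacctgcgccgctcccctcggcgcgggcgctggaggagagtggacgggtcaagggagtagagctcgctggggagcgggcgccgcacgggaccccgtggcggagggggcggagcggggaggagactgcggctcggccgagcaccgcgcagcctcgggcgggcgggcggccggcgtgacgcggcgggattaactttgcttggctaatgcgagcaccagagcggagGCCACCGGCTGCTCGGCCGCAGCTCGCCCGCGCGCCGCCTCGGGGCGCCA
The Slco1a4 promoter held 43.0% G and C and the Thrb promoter 76.0%, against a median of 51.7% over 33469 promoters of 300 bases, which put them at the 19.0 and 97.4 percentiles. The half-site bound by thyroid hormone receptors, AGGTCA, was searched on both strands and was present in 5415 of all promoters (16.2%). It was found in 0 of the 5 promoters listed for Slco1a4, Dio2, Thra (with 2 starts) and Thrb. A direct repeat of that half-site with 4 bases between the copies, the classical response element, was found in 2 of all promoters (0.00598%) and in 0 of these 5. These counts say only that the letters are not in these windows. In the RefSeq gene order Slco1c1 and Slco1a4 are near neighbours, with 1 gene, Slco1b2, between them.

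Of the 11 probe sets of the 5 genes, 7 were measured. The other 4 stayed between 2.03 and 2.75 on every array and were not tested. They were the 1 probe set of Dio2, 1 of 3 for Thra and 2 of 4 for Thrb, so 4 of the 5 genes had a measured level. Because each of the 7 was well above the limit of 4 in all 3 groups, none entered through a single group.

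Slco1c1, which encodes the thyroxine carrier OATP1C1 of brain endothelial cells and astrocytes, was lower in every aged rat than in every young rat. On its only probe set, 1370205_at, the 8 young arrays ranged from 9.53 to 10.02 with a median of 9.78. The unimpaired arrays ranged from 9.15 to 9.38 with a median of 9.29. The impaired arrays ranged from 9.08 to 9.34 with a median of 9.22. The young range therefore lay wholly above both aged ranges, with a gap of 0.15 between the lowest young and the highest aged array, and the ranges of the aged groups lay over each other. Group means were 9.78 ± 0.17 (SD, n = 8), 9.28 ± 0.08 (n = 6) and 9.22 ± 0.10 (n = 7).

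The Slco1c1 difference from young rats was -0.55 ± 0.06 (moderated standard error) in impaired rats and -0.50 ± 0.07 in unimpaired rats. The impaired level was 0.681 times the young level, with a 95% interval of 0.621 to 0.748, and the unimpaired level 0.707 times, with an interval of 0.641 to 0.778. Impaired minus unimpaired was -0.05 ± 0.07, with an interval of -0.20 to 0.09 and an adjusted p of 0.754 (limma, Benjamini-Hochberg over all 15177 probe sets). Young array 9, at 10.02, was the highest of all, and without it the differences were -0.52 ± 0.06 for impaired and -0.47 ± 0.06 for unimpaired rats. Leaving out instead the 4 arrays rich in meningeal transcripts gave -0.52 ± 0.08 and -0.49 ± 0.07.

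**Figure D1:**
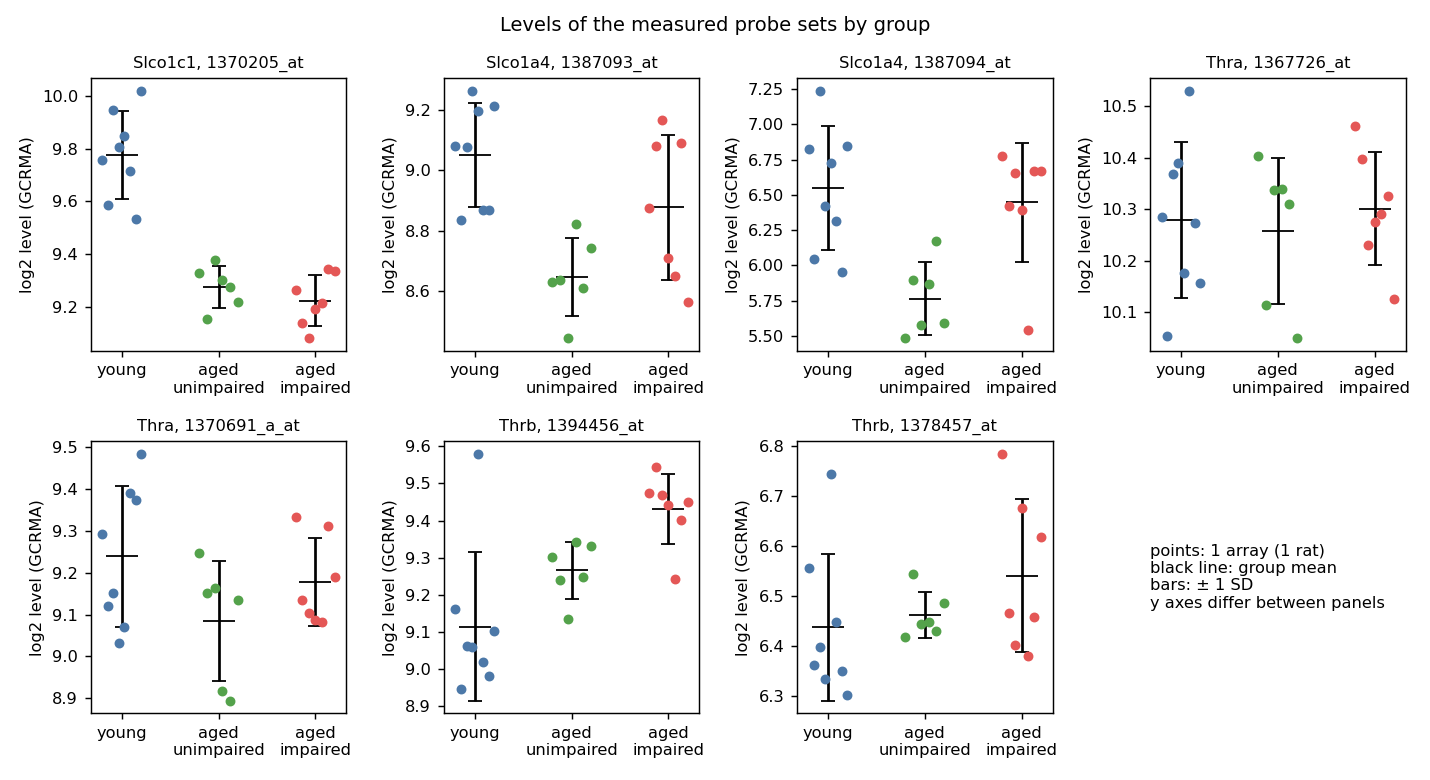
Log2 level on each array (y axis, different in each panel) of the 7 measured probe sets in young, aged unimpaired and aged impaired rats, with group means and bars of 1 SD. For Slco1c1 the 8 young points, 9.53 to 10.02, lie above all 13 aged points, 9.08 to 9.38, while the Thra panels show groups that overlap.

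Slco1a4 encodes OATP1A4, a carrier of the same family that takes up many organic anions, thyroid hormones among them, and that is rich in brain capillaries. Its mean was lowest in unimpaired rats, while impaired rats spread from the unimpaired to the young range. On the brighter probe set, 1387093_at, young arrays ranged from 8.83 to 9.26 with a median of 9.08. Unimpaired arrays ranged from 8.44 to 8.82 with a median of 8.63. Impaired arrays ranged from 8.57 to 9.17 with a median of 8.88. No unimpaired array reached the lowest young array, though the gap was only 0.01, and 4 of the 7 impaired arrays lay inside the young range.

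Means on this probe set were 9.05 ± 0.17 (SD, n = 8) in young, 8.65 ± 0.13 (n = 6) in unimpaired and 8.88 ± 0.24 (n = 7) in impaired rats. Unimpaired minus young was -0.40 ± 0.10, a ratio of 0.757 with an interval of 0.658 to 0.871, and impaired minus young was -0.17 ± 0.09. Impaired minus unimpaired was 0.23 ± 0.10 with an unadjusted p of 0.033 and did not pass over all probe sets (limma adjusted p = 0.298). A two-sided exact permutation of the aged arrays gave this difference an unadjusted p of 0.0664. The impaired arrays with high meningeal markers, 2, 3 and 7, lay between 9.08 and 9.17, and the other 4 impaired arrays between 8.57 and 8.88. Without those 3 arrays and young array 5, impaired minus unimpaired was 0.05 ± 0.09 (limma adjusted p = 0.866) and impaired minus young was -0.33 ± 0.09.

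The dimmer Slco1a4 probe set, 1387094_at, also had its lowest mean in unimpaired rats, with wider spread. Young arrays ranged from 5.96 to 7.24 (median 6.58), unimpaired arrays from 5.48 to 6.17 (median 5.73) and impaired arrays from 5.55 to 6.77 (median 6.66). Here 6 of the 7 impaired arrays lay at 6.39 or above, over the whole unimpaired range, and impaired array 6 lay inside it at 5.55. Young and impaired rats had no settled order, since the impaired median was the higher and the young mean the higher. Unimpaired minus young was -0.78 ± 0.20 and impaired minus unimpaired 0.68 ± 0.20. Impaired minus young was -0.10 ± 0.19, and 0.05 ± 0.16 without impaired array 6. The impaired minus unimpaired difference had a limma adjusted p of 0.181. By a two-sided exact permutation of the 13 aged arrays it had an unadjusted p of 0.0117. On this probe set the arrays with high meningeal markers were not the highest impaired ones, at 6.42 to 6.67 against 5.55 to 6.77 for the others, and without the 4 arrays impaired minus unimpaired was 0.58 ± 0.26 (limma adjusted p = 0.412).

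**Figure D2:**
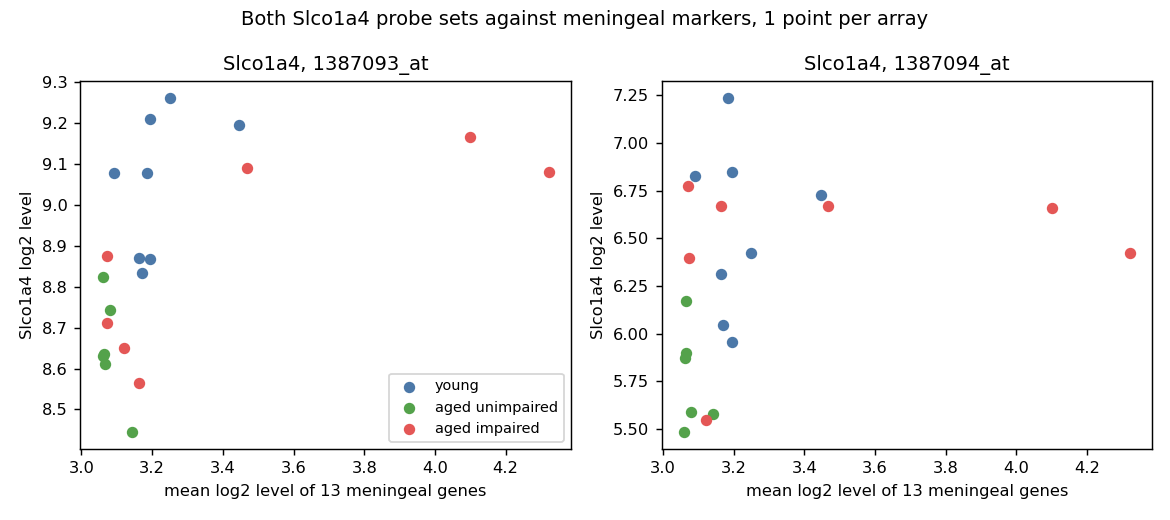
Log2 level of Slco1a4 (y axis) on its 2 measured probe sets against the mean log2 level of 13 meningeal genes (x axis), 1 point per array. On 1387093_at the impaired arrays with the highest meningeal level lie at 9.08 to 9.17, above the other impaired arrays, and on 1387094_at they lie among them.

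Both carriers are made by endothelial cells, so the level of other endothelial genes is given beside them. In whole tissue, fewer cells of a type and less RNA per cell cannot be told apart. Of 32 listed endothelial genes 28 were on the array and 21 were measured. The mean of the 21 was 6.79 ± 0.10 (SD, n = 8) in young, 6.58 ± 0.05 (n = 6) in unimpaired and 6.79 ± 0.13 (n = 7) in impaired rats, and the unimpaired arrays (6.51 to 6.64) lay below all others. Without the 4 arrays with high meningeal levels the young mean was 6.77 ± 0.07 (n = 7) and the impaired mean 6.72 ± 0.04 (n = 4). The summed signal over the 28 genes ranged from 5326 to 5876 in young, 4455 to 4847 in unimpaired and 4881 to 6051 in impaired rats. This sum is of unlogged levels, so bright genes weigh most in it, and the brightest of the 21 was Tfrc. Young rats had a mean Tfrc level of 10.75, and the log2 difference from it was -0.56 for unimpaired and -0.46 for impaired rats. The sum is thus no separate measure of endothelial content, and the share of Tfrc in it was not tested. Unimpaired rats had 4 of the 21 genes lower by the limma test than young rats and 0 higher, beside 0.936% of all probe sets lower: Tek and Sox17, regulators of vessel growth, Slc7a1, a cationic amino acid carrier, and Tfrc, the transferrin receptor. Impaired rats had 1 lower, Tfrc, and 0 higher, beside 0.204% lower of all. The endothelial list, Tfrc and Slc7a1 included, was chosen with earlier results of these data known, so these counts are given without a reading. The median difference of the 21 was -0.16 in unimpaired and 0.01 in impaired rats, against -0.04 and 0.01 over all probe sets tested. The defining genes Tie1, Mfsd2a, Emcn, Foxq1, Slc38a5, Erg and Nos3 stayed below the limit for a measured level.

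Set against this endothelial mean, Slco1c1 stood lower in both aged groups, and lowest in impaired rats, as a description with no test. Slco1c1 minus the mean of the 21 genes was 2.98 ± 0.14 (SD, n = 8) in young, 2.70 ± 0.11 (n = 6) in unimpaired and 2.43 ± 0.19 (n = 7) in impaired rats. The impaired arrays (2.06 to 2.64) lay wholly below the young ones (2.79 to 3.21), while the unimpaired arrays (2.58 to 2.84) reached into both ranges. The scaled difference from young rats was thus -0.55 in impaired and -0.29 in unimpaired rats. Impaired array 2, one of the 4 with high meningeal levels, had the highest endothelial mean, 7.08, and the lowest scaled Slco1c1 value. Without the 4 arrays the scaled differences were -0.47 and -0.30, and the impaired arrays, at 2.44 to 2.64, lay below the young ones. For Slco1a4 on 1387093_at the scaled values were 2.26, 2.07 and 2.08, and impaired minus unimpaired became 0.01, or -0.09 without the 4 arrays. The part of the endothelial level in the values of either carrier was not tested.

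**Figure D3:**
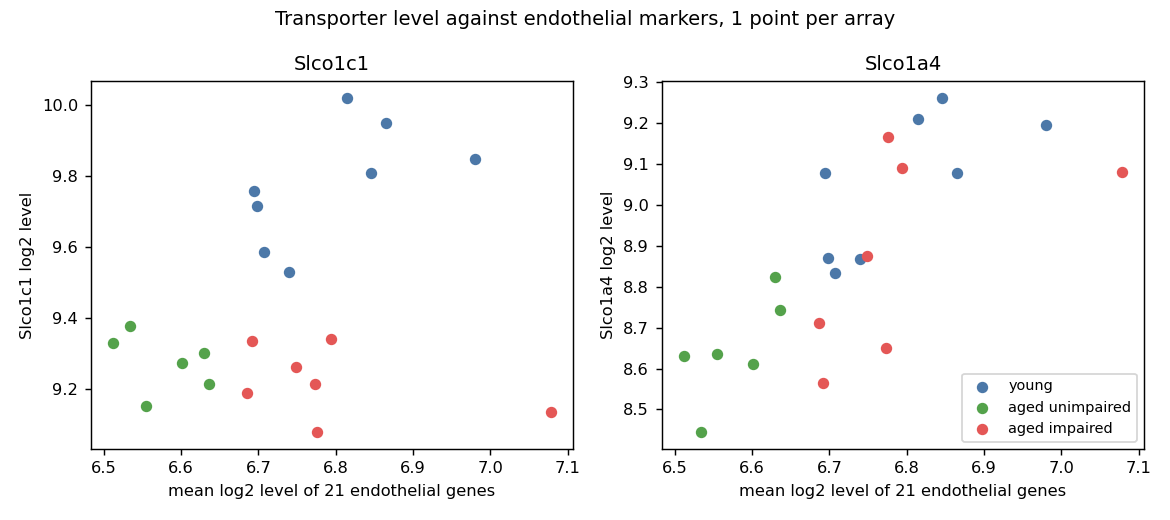
Log2 level of Slco1c1 (left) and Slco1a4 on 1387093_at (right) against the mean log2 level of 21 endothelial genes (x axis), 1 point per array. The endothelial means were 6.69 to 7.08 on impaired and 6.69 to 6.98 on young arrays, and the Slco1c1 levels 9.08 to 9.34 and 9.53 to 10.02.

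Within groups, Slco1a4 had a higher correlation with the endothelial genes than Slco1c1 had, and the difference between the correlations was not tested. For each marker list the mean here was over all its genes on the array, for endothelial cells 28, those below the limit included. Over the deviations of the 21 arrays from their group means, Slco1a4 and this endothelial mean had a Pearson r of 0.67 (permutation p = 0.00227) and a Spearman rho of 0.66 (permutation p = 0.00339), and r was 0.67 without the 2 farthest arrays. Adjusted over 36 pairs of measured genes and marker lists, p was 0.0817 for r and 0.122 for rho, so the relation did not pass. For Slco1c1 the same r was 0.10 (permutation p = 0.69, adjusted p = 0.867) and rho 0.14 (permutation p = 0.593). Without the 4 arrays with high meningeal levels (17 arrays) r was 0.62 for Slco1a4 (permutation p = 0.0227, adjusted p = 0.485) and 0.37 for Slco1c1 (permutation p = 0.264, adjusted p = 0.633). Among the 9 marker lists Slco1c1 had its highest correlation with the astrocyte genes, with an r of 0.36 (permutation p = 0.11, adjusted p = 0.371), 0.47 without the 2 farthest arrays, and a rho of 0.51 (permutation p = 0.032, adjusted p = 0.24). This did not pass either. The dimmer Slco1a4 probe set gave r of 0.22 with the endothelial genes (permutation p = 0.38, adjusted over 9 lists 0.636) and 0.12 with the meningeal genes (permutation p = 0.734), where 1387093_at gave 0.61 with the meningeal genes (permutation p = 0.0216, adjusted p = 0.201). That value became -0.15 without the 4 arrays (permutation p = 0.623), so it rests on them. The 2 Slco1a4 probe sets had an r of 0.46 with each other (permutation p = 0.0553, adjusted over the 3 pairs of probe sets of 1 gene 0.083), and 0.45 without the 4 arrays.

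Slco1c1 and Slco1a4 had a low correlation within groups, with an r of 0.17 (permutation p = 0.463, adjusted over 10 pairs 0.89) and a rho of 0.13 (permutation p = 0.594). With those 4 arrays left out r was 0.42 (permutation p = 0.167, adjusted p = 0.399). The 5 genes most like Slco1c1 in these deviations, of 8736 other genes with a measured level, were Fdx1 (r of 0.78), Axin2 (0.73), Abhd3 (0.72), Rnase4 (0.71) and Ndp (0.70), over 21 arrays that share 1 normalisation. They were picked as the highest of these 8736 values and were not tested. The order is a description, and no shared role is read from it. Fdx1 encodes a mitochondrial electron carrier, Axin2 a feedback inhibitor and widely used target of Wnt signalling, Rnase4 a secreted ribonuclease and Ndp the Wnt pathway ligand norrin. None of the 5 followed the size of the Slco1c1 difference between young and aged rats. Their differences ranged from -0.20 (Ndp) to 0.07 (Rnase4) in impaired and from -0.22 (Ndp) to -0.0041 (Rnase4) in unimpaired rats. Slco1a4 was at rank 2542 of that order.

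Dio2 encodes the deiodinase that turns thyroxine into triiodothyronine in astrocytes. Its 1 probe set, 1369778_at, stayed at 2.24 to 2.29 in young, 2.25 to 2.30 in unimpaired and 2.27 to 2.29 in impaired rats. All 21 values lay far below the array medians, so no comparison was made and the probe set gives no reading of the Dio2 level. Astrocytes themselves were well represented: 14 of 14 listed astrocyte genes were measured, with means of 11.09 ± 0.09 (SD, n = 8), 11.06 ± 0.05 (n = 6) and 11.12 ± 0.14 (n = 7). The inactivating deiodinase Dio3 and the peripheral deiodinase Dio1 also stayed below the limit.

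Thra, which encodes thyroid hormone receptor alpha, the main receptor form of brain neurons, had high levels that overlapped between all groups. On 1367726_at young arrays ranged from 10.05 to 10.53 with a median of 10.28. Unimpaired arrays ranged from 10.05 to 10.40 (median 10.32) and impaired arrays from 10.13 to 10.46 (median 10.29). Means were 10.28 ± 0.15 (SD, n = 8), 10.26 ± 0.14 (n = 6) and 10.30 ± 0.11 (n = 7), less than 0.05 apart. Impaired minus unimpaired was 0.04 ± 0.07, with a 95% interval of -0.11 to 0.20 (limma adjusted p = 0.818), and impaired minus young was 0.02 ± 0.07, with an interval of -0.12 to 0.17.

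The second Thra probe set, 1370691_a_at, had means of 9.24 ± 0.17 (n = 8), 9.08 ± 0.14 (n = 6) and 9.18 ± 0.11 (n = 7). The groups overlapped here too: unimpaired arrays reached from 8.89 to 9.25 and young arrays from 9.03 to 9.48. Unimpaired minus young was -0.15 ± 0.08 and impaired minus unimpaired 0.09 ± 0.08 (limma adjusted p = 0.592). Within groups the 2 Thra probe sets had a low correlation (r of 0.11, permutation p = 0.676; rho of 0.17, permutation p = 0.499). The third, 1380518_s_at, stayed at 2.45 to 2.53.

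Thrb encodes thyroid hormone receptor beta, the form that also serves feedback on the thyroid axis. Its mean on the brighter probe set was lowest in young and highest in impaired rats. On 1394456_at young arrays ranged from 8.95 to 9.58 with a median of 9.06. Unimpaired arrays ranged from 9.14 to 9.34 with a median of 9.28. Impaired arrays ranged from 9.24 to 9.54 with a median of 9.45. All 13 aged arrays lay above the young mean, and 6 of the 7 impaired arrays lay above every unimpaired array. Young array 5, at 9.58, was the highest of all 21, while the other 7 young arrays were at 9.16 or below, under every impaired array. Without young array 5 the young and unimpaired ranges still overlapped, and impaired array 6, at 9.24, lay inside the unimpaired range.

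Thrb means on this probe set were 9.11 ± 0.20 (SD, n = 8), 9.27 ± 0.08 (n = 6) and 9.43 ± 0.09 (n = 7). Impaired minus young was 0.32 ± 0.07, a ratio of 1.25 with an interval of 1.12 to 1.38, and unimpaired minus young was 0.15 ± 0.07. Without young array 5 these became 0.38 ± 0.05 and 0.22 ± 0.05. Impaired minus unimpaired was 0.17 ± 0.08 and did not pass over all probe sets (unadjusted p = 0.0446, limma adjusted p = 0.332). The two-sided exact permutation test of the 13 aged arrays gave an unadjusted p of 0.00816. Leaving out all 4 arrays rich in meningeal transcripts gave differences of 0.35 ± 0.06 for impaired and 0.22 ± 0.05 for unimpaired against young rats, and 0.14 ± 0.06 between the aged groups (limma adjusted p = 0.39).

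The dimmer Thrb probe set, 1378457_at, did not separate the groups. Young arrays ranged from 6.30 to 6.75, unimpaired arrays from 6.42 to 6.54 and impaired arrays from 6.38 to 6.79. Impaired minus young was 0.10 ± 0.07, with an interval of -0.03 to 0.24, and impaired minus unimpaired was 0.08 ± 0.07 (limma adjusted p = 0.623). The 2 measured Thrb probe sets had a within-group r of 0.64 (permutation p = 0.0121, adjusted 0.0362) and a rho of 0.49 (permutation p = 0.0257, adjusted 0.077), but r was 0.13 without the 2 farthest arrays, so the relation rests on those arrays. Without the 4 arrays with high meningeal levels r was 0.60 (permutation p = 0.0417, adjusted 0.125). The remaining Thrb probe sets, 1370474_at and 1387983_at, stayed between 2.03 and 2.75.

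**Figure D4:**
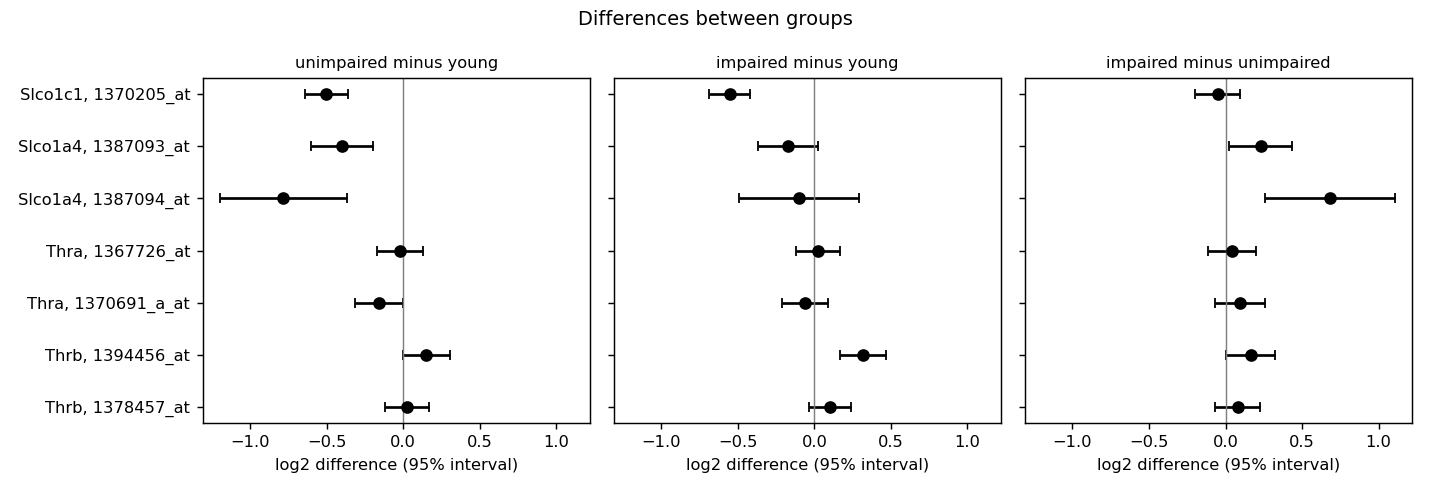
Log2 difference (x axis) with its 95% interval from the limma fit for each measured probe set, in unimpaired minus young, impaired minus young and impaired minus unimpaired rats. Slco1c1 lies near -0.5 against young rats in both aged groups and near 0 between them, whereas Slco1a4 lies below 0 in unimpaired rats and closer to 0 in impaired rats.

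Counted over the 7 measured probe sets, impaired minus unimpaired gave 0 with an adjusted p below 0.05, where 0.0% of all probe sets passed. By limma 3 of the 7 had an unadjusted p below 0.05, where 14.5% of all probe sets did. They were both probe sets of Slco1a4 and Thrb on 1394456_at, so they are not 3 separate genes. The exact permutation test gave 2 of 7, Slco1a4 on 1387094_at and Thrb on 1394456_at. That count has no share over all probe sets beside it and is given without a reading. None of the 7 had aged groups that did not overlap, against 1.05% of all. Against young rats the choice of genes had these contrasts in view, so the counts are given without a reading: 2 of 7 passed in impaired rats (Slco1c1 lower, Thrb on 1394456_at higher) beside 0.514% of all probe sets, and 2 of 7 in unimpaired rats (Slco1c1 and Slco1a4 on 1387093_at, both lower) beside 1.13%. For all aged rats against young 1 of 7 passed beside 1.11%. Ranges that did not overlap with the young numbered 1 in impaired (0.316% of all), 2 in unimpaired (0.949%) and 1 in all aged rats (0.0857%).

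As a limit on these counts, over the 30 alternatives (each of the 21 arrays left out in turn and 9 other settings) 2 of the calls were often lost. Slco1a4 in unimpaired rats passed in 7 of the 21 fits and 4 of the 9 settings, being lost under 5, among them median centring, quantile normalisation, no filter and array weights. Its values ran from -0.44 to -0.33. Thrb in impaired rats passed in 2 of the 21 fits, those without young array 5 or impaired array 6, and in 6 of the 9 settings, being lost under median centring, no filter and the fit of only the groups compared. Its values ran from 0.29 to 0.39. Slco1c1 values ran from -0.59 to -0.50 in impaired and from -0.54 to -0.45 in unimpaired rats, a description of a gene chosen with that difference known.

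Within groups, Slco1a4 and Thrb had the highest correlation among the 10 pairs of the 5 genes, with an r of 0.50 (permutation p = 0.00856) and a rho of 0.54 (permutation p = 0.0122), and r was 0.58 without the 2 farthest arrays. Adjusted over the 10 pairs, p was 0.0856 for r and 0.122 for rho, so 0 pairs passed, and 1 had an unadjusted p below 0.05. Without the 4 arrays with high meningeal levels r was 0.66 (adjusted p = 0.068) and rho 0.74 (adjusted p = 0.0182, permutation within groups), past the threshold for rho alone. Slco1c1 and Thrb had an r of 0.20 (permutation p = 0.534) and Thra and Thrb one of -0.11 (permutation p = 0.682). The 4 pairs with Dio2 compare values at the bottom of the scale and have no meaning as levels.

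Around these genes, 81 others of the pathway were listed by role, of which 74 were on the array and 48 were measured. None of the 48 passed in any comparison (limma), while an unadjusted p below 0.05 was seen for 9 between the aged groups, 6 in impaired and 9 in unimpaired rats against young. Of all probe sets 14.5%, 12.4% and 17.0% had such a p. Their median difference was 0.08, 0.05 and -0.04 in these 3 comparisons, beside 0.05, 0.01 and -0.04 over all probe sets. In impaired minus unimpaired 41 of the 48 were positive and 7 negative, in impaired minus young 29 and 19, and in unimpaired minus young 18 and 30. Between the aged groups each of the 9 marker lists also had more positive than negative differences. Examples are 19 and 2 for endothelial, 12 and 2 for astrocyte and 5 and 4 for microglial genes. The lean is thus not particular to this pathway.

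Among carriers and binding proteins, 8 of 18 listed genes were measured and 0 passed. Slco3a1, a broadly expressed carrier of the same family, averaged 7.71 ± 0.12 (SD, n = 8) in young, 7.56 ± 0.07 (n = 6) in unimpaired and 7.69 ± 0.13 (n = 7) in impaired rats (limma adjusted p = 0.213 for unimpaired minus young). Alb, the plasma carrier albumin, was 7.49 to 7.89 in unimpaired rats, 5.36 to 7.40 in young rats and 3.16 to 8.06 in impaired rats. No unimpaired array lay inside the young range of Alb, a lack of overlap seen in 0.949% of all probe sets. Unimpaired minus young was 1.11 (limma adjusted p = 0.29). Impaired minus unimpaired was -1.32 (limma adjusted p = 0.269), and -0.99 without the 4 arrays with high meningeal levels (limma adjusted p = 0.364). Crym, the cytosolic triiodothyronine binding protein, was high and level, with means of 11.94, 11.89 and 11.92, and was chosen for its role after its values were seen. The carriers Slc16a10, Slco1a1, Slco1a5 and Slco1a6 stayed below the limit for a measured level.

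Among genes that serve deiodinases and selenoprotein synthesis 8 of 11 were measured and 0 passed. Secisbp2, which recodes the stop codon of selenoprotein messages, averaged 5.87 ± 0.13 (SD, n = 8), 5.69 ± 0.18 (n = 6) and 5.93 ± 0.18 (n = 7) (limma adjusted p = 0.23 between the aged groups). Wsb1, part of the ubiquitin ligase that marks type 2 deiodinase for breakdown, averaged 10.05 ± 0.21, 10.07 ± 0.07 and 10.24 ± 0.13 (limma adjusted p = 0.285 for impaired minus young). In impaired minus unimpaired all 8 measured genes of this group had positive differences, from 0.03 to 0.24, beside the median of 0.05 over all probe sets.

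Receptor partners and coregulators had 13 of 20 genes measured and 0 passed. Itgav, a subunit of the cell surface integrin that binds thyroxine, came closest in impaired rats, with young arrays from 8.36 to 8.99 and impaired arrays from 8.67 to 9.32, overlapping. Its difference was 0.37 ± 0.10 (limma adjusted p = 0.0857), and it passed when young array 5 (0.42, adjusted p = 0.0262) or impaired array 4 (0.42, adjusted p = 0.0465) was left out, but not without the 4 arrays with high meningeal levels (0.40, adjusted p = 0.105). Tbl1x, a subunit of the corepressor complex of unliganded receptors, came closest in unimpaired rats. Its young arrays ranged from 9.28 to 9.96 and its unimpaired arrays from 9.13 to 9.36, and the difference was -0.30 ± 0.09 (limma adjusted p = 0.0918). The retinoid X receptors Rxra and Rxrg were below the limit, and Rxrb, which was measured, differed by 0.07 between the aged groups (limma adjusted p = 0.48).

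Of 25 genes known to respond to thyroid hormone in brain, 18 were measured and 0 passed. Mag, a myelin protein, had its lowest mean in unimpaired rats, with values of 7.71 to 8.36 against 8.27 to 8.60 in young and 8.06 to 8.67 in impaired rats. Its difference between the aged groups was 0.39 ± 0.11 (limma adjusted p = 0.166). Beside it, the 11 measured oligodendrocyte markers averaged 8.92 ± 0.10 (SD, n = 8), 8.59 ± 0.18 (n = 6) and 8.85 ± 0.16 (n = 7), a list that holds Mag itself, and their part in the Mag values was not tested. Thrsp, a regulator of lipid synthesis, averaged 8.36 ± 0.19 and 8.41 ± 0.24 in the aged groups and 8.11 ± 0.18 in young rats, with a difference of 0.28 ± 0.09 over all aged rats (limma adjusted p = 0.133). Klf9, a transcription factor induced directly by the hormone and named for that role after its values were seen, was at 11.12 ± 0.09, 11.17 ± 0.19 and 11.20 ± 0.16, and impaired minus unimpaired was 0.03 (limma adjusted p = 0.865). Ptgds, a prostaglandin synthase that the leptomeninges also make in quantity and that was chosen after its values were seen, was at 14.03, 13.22 and 12.86 on impaired arrays 2, 3 and 7 and at 10.34 to 10.91 on the other impaired arrays. Its difference of 1.40 in impaired minus young became 0.36 without the 4 arrays with high meningeal levels (limma adjusted p = 0.349). Of the thyroid axis list only Trhr, the receptor of thyrotropin-releasing hormone, was measured, at 4.05 to 7.29 over all arrays with 0 comparisons passed.

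**Figure D5:**
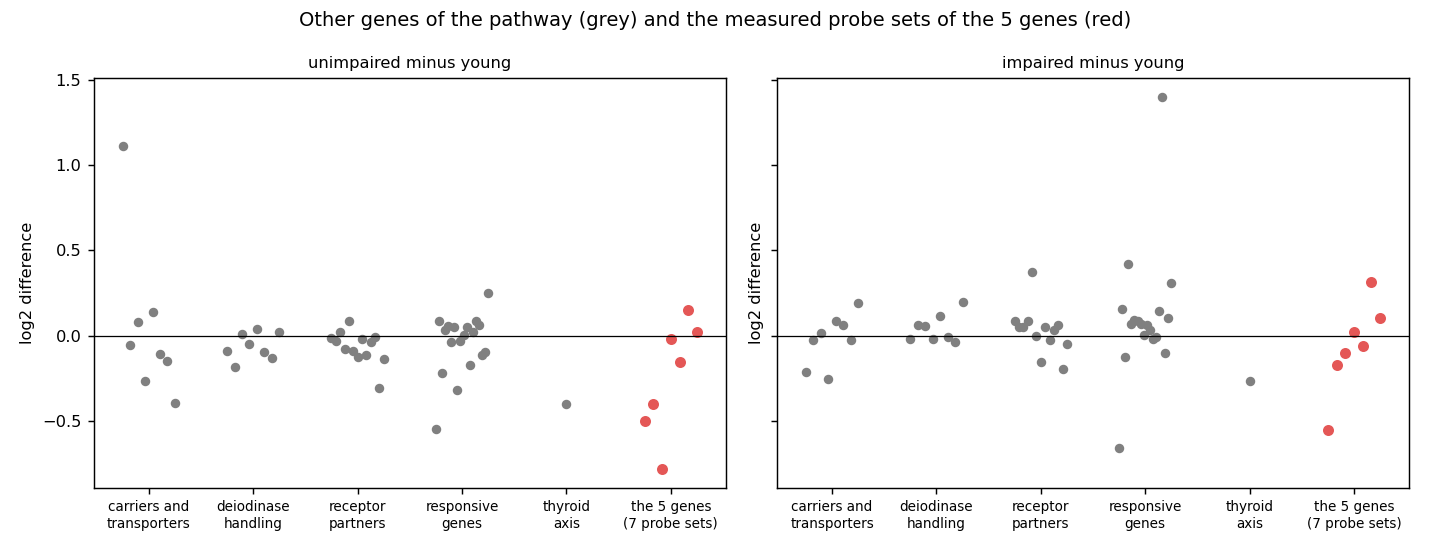
Log2 difference (y axis) of 48 measured pathway genes, grouped by role (grey), beside the 7 measured probe sets of the 5 genes (red), in unimpaired minus young and impaired minus young rats. The highest grey points are Alb at 1.11 in unimpaired rats and Ptgds at 1.40 in impaired rats (0.36 without the 4 arrays with high meningeal levels), and none of the grey points passed the test.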

How the data were processed

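The deposited values are log2 probe set levels made by the authors with GCRMA (version not stated), per the submitters' processing notes. GCRMA sets dim probe sets near a common floor, so values below about 3 carry little order. Of 24 labelled arrays 3 were omitted by the submitters, 1 per group, which left 21. Young replicate 9 stands among unimpaired arrays in deposit order but is young by its title. The labels call the arrays biological replicates and give no batch.

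Symbols came from the platform annotation: 20826 probe sets have 1 symbol, 20758 of them matched RefSeq (GRCr8) and 0 symbols changed. Of 31042 probe sets besides 57 controls, the 15177 above log2 4 on at least 6 arrays entered 1 linear model fit by limma 3.58.1 under R 4.3.3 (all 3 groups, 18 residual degrees of freedom, Benjamini-Hochberg adjustment, threshold 0.05). Correlations used deviations from group means and 100000 two-sided permutations within groups. The scripts were tested on simulated data. A gene on several probe sets was represented by the one with the highest mean.

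The 5 genes and all lists were chosen with earlier results of these data known. Named by rule were every probe set of the 5 genes, the 2 genes of each pathway list with the smallest p where none passed, and the 5 genes most correlated with Slco1c1. Alternatives were 2 other scalings, 2 other filters, array weights, a trend in eBayes, fits of only the groups compared, replicate number as a block, the fit without 4 arrays, each array left out in turn, other probe sets and exact permutation.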

Additional observations from a re-analysis of the deposited data

Results flagged for a closer look

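In 21 checks of the measured probe sets, 7 in each group, 2 arrays stood apart from the rest of their group by Dixon's criterion, which chance alone would flag in about 1 in 20. On the dimmer Slco1a4 probe set, 1387094_at, impaired replicate 6 was at 5.55, and the other 6 impaired arrays were at 6.39 to 6.77. Without it, impaired minus unimpaired on this probe set was 0.83 ± 0.18 (limma adjusted p = 0.126), against 0.68 ± 0.20 with it. On the brighter Thrb probe set, 1394456_at, young replicate 5 was at 9.58, and the other 7 young arrays were at 8.95 to 9.16. Without it, unimpaired minus young was 0.22 ± 0.05 against 0.15 ± 0.07. This array also had the highest meningeal mean among young arrays, 3.45, and its part in the Thrb value was not tested.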

How the results depend on the processing

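The number of probe sets that passed over the whole array moved with the settings. It was 78 in impaired minus young, and 33 without a filter, 33 with only the groups compared and 29 without the 4 arrays with high meningeal markers. It was 172 in unimpaired minus young, and 67, 69 and 96 under the same settings. It was 168 in all aged minus young, and 90 without a filter and 86 without the 4 arrays. Impaired minus unimpaired gave 0, and 1 with only the groups compared. With each array left out the counts ranged from 0 to 4, 36 to 161, 59 to 222 and 89 to 239 in impaired minus unimpaired, impaired minus young, unimpaired minus young and all aged minus young. The highest count for impaired minus young came without young replicate 5 and the lowest for unimpaired minus young without young replicate 9. Pathway genes that passed in impaired minus young ranged from 0 to 1 and gene pairs that passed from 0 to 1. The other Slco1a4 probe set gave -0.78 in unimpaired minus young, and the other Thrb probe set gave 0.10 in impaired and 0.064 in all aged minus young. Between the aged groups, the exact permutation test gave Slco1a4 on 1387093_at an unadjusted p of 0.0664, where limma gave 0.0331. For Thrb on 1394456_at, at 0.17, both were below 0.05, with 0.00816 by permutation and 0.0446 by limma. The cause of these shifts was not tested.

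Same-numbered arrays had a mean r of 0.02 over 17 pairs (from -0.12 to 0.20), beside -0.003 over 129 pairs with other numbers (from -0.19 to 0.19). These values gave no sign of pairing by number, but such a mean cannot exclude pairing or a shared batch. With replicate number as a block, 0, 114, 9 and 76 probe sets passed in these comparisons. Of the calls counted against young rats, that of Slco1a4 in unimpaired rats was lost under the block, and those of Slco1c1 and Thrb were not. Dim probe sets such as that of Dio2 limit what can be said of their genes. The correlations and scaled levels without the 4 arrays were added after seeing the data.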
